A study of Mus musculus with 2 samples.

Results

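The 46 genes described here were chosen by name, out of 32285 genes counted, because each has a known place in the cell division cycle. By role, 22 act in G2 and mitosis (G2/M), 17 act in the entry into S phase and in DNA replication, 3 are D-type G1 cyclins, 3 are inhibitors of cyclin-dependent kinases (CDKs), and Stmn1, which encodes a protein that destabilises microtubules, stands by itself. All 46 symbols matched a single gene ID in both libraries. RNA was counted in single cells of the lung that the study had sorted by flow cytometry as alveolar macrophages (AMs), the resident macrophages of the air spaces, from C57BL/6 mice at 10 weeks of age. The control library came from mice given vehicle. The tumor library came from mice with an orthotopic lung tumor, grown from LLC (Lewis lung carcinoma) cells placed in the lung. There was 1 library per group, and the number of mice behind each is not given in the sources used here. The methods of the study also mention assigning barcodes to samples by hashtag reads. These were not used here, and every barcode of a table was taken as one of its labelled group. No test and no p-value was therefore possible. Every interval below is a 95% interval that covers counting error only, and differences between mice cannot be told apart from differences between the groups.

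A barcode, the tag of 1 droplet, was kept if it held at least 500 genes and at most 10% mitochondrial counts. A count is a UMI, a single tagged RNA molecule. The filter kept 6185 of 8485 barcodes in the control library and 7666 of 9175 in the tumor library, with medians of 10370 and 8264 UMIs. Levels are given as counts per 1000000 UMIs (CPM), summed over the barcodes of a library. The libraries shared 25 barcode sequences, of which 17 were kept in both. Among the 12936 genes that reached 10 UMIs in both libraries, the log2 ratio of tumor over control had a median of -0.07. All 14 AM markers (Marco, Siglecf, Pparg, Chil3 and others) were detected, and 4 of them, Marco, Ear1, Car4 and Krt79, were lower in the tumor library by at least 1.5-fold. None was higher by that fold, where 12.0% of all genes were lower and 8.02% higher. Marco was at 585 against 207 CPM. Of the 10 markers of monocytes or tumor macrophages, 6 of the 7 with enough UMIs were higher by that fold, and their sum was 97.0 against 221 CPM. The 6 fibroblast markers summed to 0.771 against 32.4 CPM and the 8 epithelial or carcinoma markers to 596 against 231 CPM. Of these 8, 6 were lower by 1.5-fold and 1 was higher, and Krt8 had 10 UMIs in the control library against 40. These levels move with the comparison of the libraries, and their part in the results was not tested. In the tumor library 36 kept barcodes lay under 1000 CPM of the summed AM markers, against 9 in the control library, and the main values without them are given with the marker levels of cycling barcodes.

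Cells that divide copy their DNA in S phase and separate the copies in mitosis. D-type cyclins with their CDKs release E2F transcription factors from the retinoblastoma protein, and E2F then switches on the genes of DNA replication. Genes of mitosis come on later, through complexes that bind CHR and CCAAT letters in their promoters. CDK inhibitors hold the cycle back. AMs renew themselves by division in the lung, so a small share of them is in cycle at any time.

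The promoters of these genes carry different letters by phase. RefSeq windows running from 250 bases before to 50 bases after the start of a gene (build GRCm38.p6) were given for 36 of the 46 members, and 3 motifs were searched on both strands. CHR was read as TTTGAA. The CCAAT box was read as its name spells it. E2F had 4 spellings, the first of them TTCCCGC and the second TTCGCGC. The third was TTGCCGC and the last of the 4 was TTGGCGC. CHR letters were found in 13 of 18 G2/M members (72.2%), in 2 of 14 S members (14.3%) and in 20.2% of the 27025 genes with a window. CCAAT was found in 16 of 18 G2/M members (88.9%), in 10 of 14 S members (71.4%) and in 41.1% of all genes. All 13 G2/M members with CHR letters also held CCAAT, while both were present in 8.97% of all genes. E2F letters went the other way. They were found in 8 of 14 S members (57.1%), in 3 of 18 G2/M members (16.7%) and in 10.9% of all genes. The last E2F spelling, read on the other strand as GCGCCAA, can share bases with CCAAT, and without such overlaps 8 S members and 2 G2/M members remained. A match shows letters, not binding. A CCAAT and a CHR match lay 26 to 35 bases apart, counted from start to start of the motifs, in 6 G2/M members, a range set after the distances were seen, and 25 bases apart in Mki67 and Ccnb2. The 200 bases before the start of 4 of them are printed as examples, without Top2a (35 bases) and Prc1 (32), and those of 3 S members because they hold E2F letters and no CHR. Each runs 5′ to 3′ along the strand of the gene, and capitals mark every CHR, CCAAT and E2F match on either strand.
Cdk1, chr10:69352913-69353112, - strand: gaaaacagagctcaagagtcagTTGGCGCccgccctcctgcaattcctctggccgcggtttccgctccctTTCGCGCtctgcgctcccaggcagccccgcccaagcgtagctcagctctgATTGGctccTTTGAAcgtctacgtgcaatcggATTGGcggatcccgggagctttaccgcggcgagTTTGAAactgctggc
Cdc20, chr4:118437344-118437543, - strand: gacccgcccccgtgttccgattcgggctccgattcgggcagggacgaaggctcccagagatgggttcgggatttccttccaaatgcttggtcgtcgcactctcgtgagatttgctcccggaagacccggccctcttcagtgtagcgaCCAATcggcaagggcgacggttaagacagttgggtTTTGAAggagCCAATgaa
Kif11, chr19:37376182-37376381, + strand: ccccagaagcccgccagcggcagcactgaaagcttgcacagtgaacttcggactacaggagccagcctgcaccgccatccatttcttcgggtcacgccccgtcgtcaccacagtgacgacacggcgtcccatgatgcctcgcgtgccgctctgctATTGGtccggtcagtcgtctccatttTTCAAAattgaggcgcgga
Ube2c, chr2:164769729-164769928, + strand: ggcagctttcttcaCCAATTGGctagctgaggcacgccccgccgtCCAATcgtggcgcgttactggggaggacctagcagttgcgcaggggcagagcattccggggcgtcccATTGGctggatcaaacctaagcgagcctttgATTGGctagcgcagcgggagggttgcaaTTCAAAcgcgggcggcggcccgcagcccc
Mcm5, chr8:75109309-75109508, + strand: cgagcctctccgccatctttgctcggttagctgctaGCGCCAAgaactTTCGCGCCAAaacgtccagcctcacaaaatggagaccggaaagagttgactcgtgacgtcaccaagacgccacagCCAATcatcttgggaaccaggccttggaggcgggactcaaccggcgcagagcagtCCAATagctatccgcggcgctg
Mcm6, chr1:128359706-128359905, - strand: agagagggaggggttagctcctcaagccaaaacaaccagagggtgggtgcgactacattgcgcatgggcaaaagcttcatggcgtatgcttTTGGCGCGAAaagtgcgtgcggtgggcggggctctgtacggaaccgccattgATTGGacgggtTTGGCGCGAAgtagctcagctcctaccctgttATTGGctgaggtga
Rrm1, chr7:102441495-102441694, + strand: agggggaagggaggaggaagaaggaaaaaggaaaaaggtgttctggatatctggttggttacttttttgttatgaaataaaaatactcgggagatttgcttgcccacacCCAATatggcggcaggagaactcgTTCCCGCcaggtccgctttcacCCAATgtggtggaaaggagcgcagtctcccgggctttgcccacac
In Kif11 the distance was 26 bases, in Ube2c 28, in Cdk1 33 and in Cdc20 35, and a further pair in Cdk1 lay 9 bases apart. Cdk1, the kinase that drives entry into mitosis, held E2F letters as well as both other motifs. In the printed bases Mcm6, a subunit of the replicative helicase, held 4 E2F matches, and Rrm1, a subunit of ribonucleotide reductase, held 1. A further E2F match in Mcm6 lay 25 bases past the start.

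Transcripts of G2 and mitosis were lower in the tumor library. Of the 22 G2/M members, 20 were lower by at least 1.5-fold and none was higher by as much, where 12.0% of all genes tested were lower and 8.02% higher by that fold. All 22 intervals lay below 0. The share of all genes with such an interval is not given here, so this count cannot be read against it. The median log2 ratio was -1.12, which is 2.17-fold, with a range of -1.43 to -0.40. Here, as in every sum over barcodes, fewer cells with a transcript and less of it per cell cannot be told apart by the sum alone.

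Mki67, the proliferation antigen Ki-67, is a protein-coding gene at chr7:135689784-135716361 (GRCm38, - strand). Its level was 65.3 CPM (63.3 to 67.3) in control AMs and 29.7 CPM (28.5 to 31.1) in AMs of the tumor library. Its log2 ratio was -1.13 (-1.21 to -1.06). Top2a, which untangles DNA before mitosis, was at 55.1 and 25.8 CPM. The 2 intervals of either gene did not overlap. The cyclins that activate Cdk1 followed the same order. Ccnb1 was at 7.79 against 3.12 CPM (log2 -1.32, -1.55 to -1.08), Ccnb2 at 15.1 against 7.19 CPM (-1.07, -1.23 to -0.91) and Ccna2 at 10.4 against 5.42 CPM (-0.94, -1.12 to -0.75). Cdk1 itself was at 21.0 against 9.55 CPM. For these 4 genes the control level was between 1.91-fold and 2.49-fold higher.

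The largest ratios among the G2/M members belonged to the rule genes Ube2c (log2 -1.43) and Birc5 (-1.33) and to Kif11 (-1.39). Ube2c, the ubiquitin-conjugating enzyme that serves the anaphase-promoting complex, was at 29.2 CPM in the control library and 10.8 CPM in the tumor library. Birc5, the survivin subunit of the chromosomal passenger complex, was at 39.4 and 15.6 CPM. Kif11, the kinesin that pushes the spindle poles apart, was at 14.0 and 5.35 CPM. Among the regulators of mitotic exit and of the spindle checkpoint, Cdc20 was at 5.15 against 2.34 CPM (-1.14), Bub1 at 6.38 against 2.86 CPM (-1.16) and Plk1 at 5.13 against 2.65 CPM (-0.96). The aurora kinases Aurka and Aurkb had log2 ratios of -0.81 and -0.98. Of the spindle and midzone proteins, Nusap1, Tpx2, Prc1 and Kif20a lay between -1.25 and -0.90, and the kinetochore proteins Cenpf and Cenpe were at -1.25 and -1.02. The 2 members within 1.5-fold were Cenpa, the centromeric histone, at 23.6 against 17.8 CPM (-0.40), and the checkpoint kinase Bub1b at 35.6 against 25.9 CPM (-0.46).

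**Figure D1:**
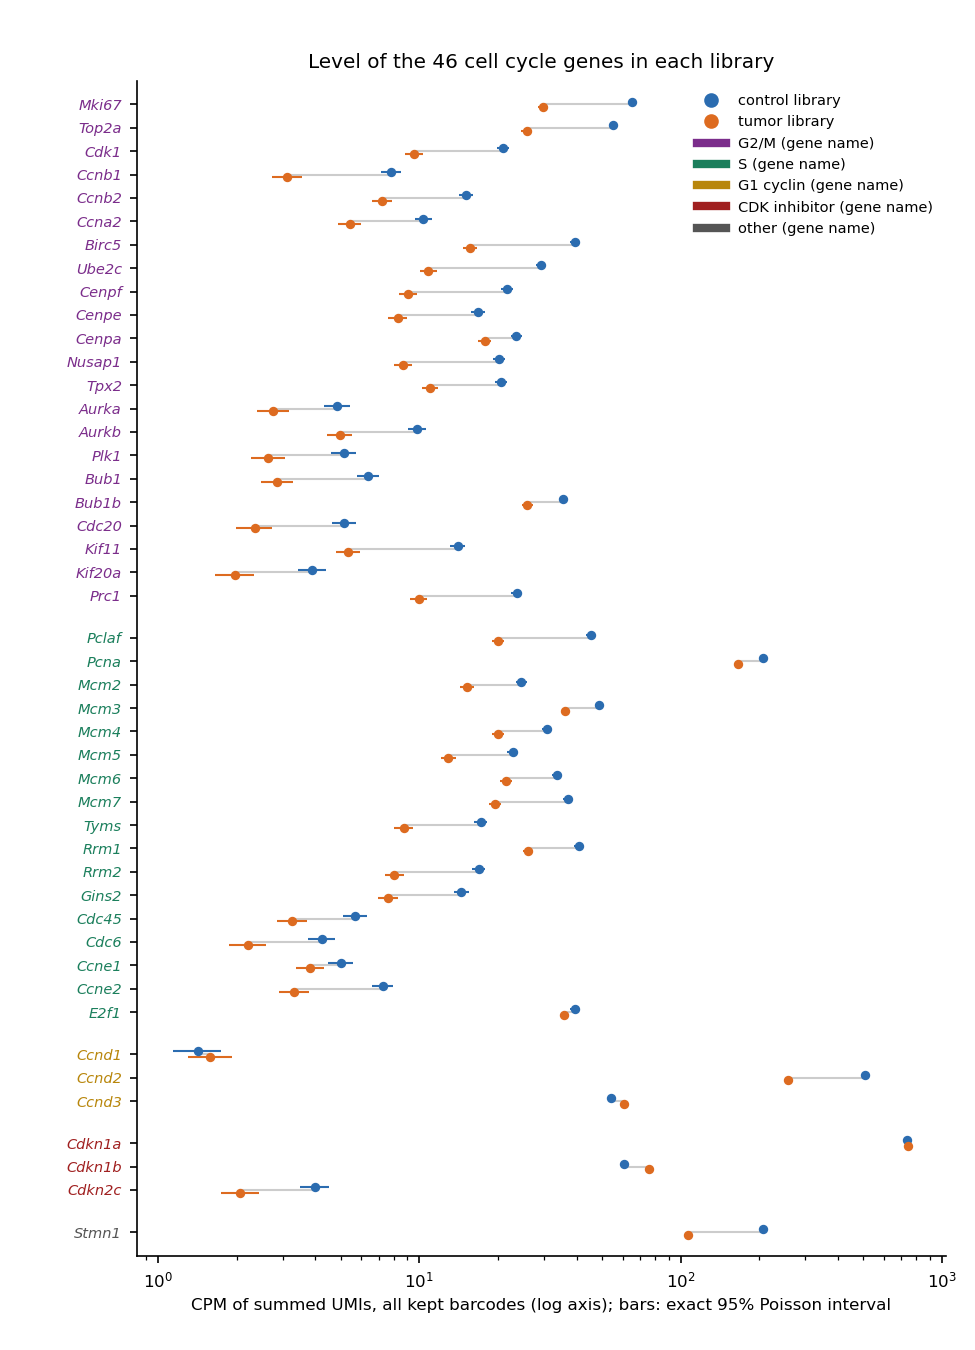
Level of each of the 46 members in the control library (blue) and the tumor library (orange) as CPM of summed UMIs over all kept barcodes, on a log axis, with exact 95% Poisson intervals as bars and gene names coloured by role. The tumor point lies to the left of the control point in all 22 G2/M and all 17 S members, and in 4 of the other 7 members the tumor point lies to the right.

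S phase transcripts were also lower in the tumor library, by less. Of the 17 S members, 13 were lower by at least 1.5-fold, against 12.0% of all genes, and none was higher, against 8.02%, with a median log2 ratio of -0.81 (1.75-fold) and a range of -1.17 to -0.13. All 17 intervals lay below 0, again without a share over all genes to read this against. Pclaf, a partner of the replication clamp, was at 45.2 CPM (43.6 to 46.9) against 20.1 CPM (19.0 to 21.2), a log2 ratio of -1.17. Rrm2, the small subunit of ribonucleotide reductase, was at 16.9 against 8.04 CPM (-1.07), while Rrm1, its large subunit, was at 40.8 against 26.0 CPM (-0.65). Tyms, which makes thymidylate, was at 17.2 against 8.71 CPM (-0.98). The 6 helicase subunits Mcm2 to Mcm7 ranged from -0.42 for Mcm3 to -0.93 for Mcm7. Their partners Gins2 and Cdc45 were at -0.93 and -0.81, and the loading factor Cdc6 was at -0.94. The genes Mcm7, Gins2, Cdc45, Pclaf, Ccne2, Ccna2, Cdc20, Prc1, Kif20a, Nusap1, Ube2c, Ccnd1, Ccnd2 and Ccnd3 each overlap another counted gene on the opposite strand, and whether counting used the strand is not given in the sources used here.

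The S members within 1.5-fold were Pcna, Mcm3, Ccne1 and E2f1. Pcna, the replication clamp, which also serves DNA repair (chr2:132249162-132253314, - strand), was at 207 against 167 CPM, a log2 ratio of -0.31 (-0.35 to -0.28). E2f1, the transcription factor, was at 39.3 against 35.9 CPM (-0.13, -0.21 to -0.05). The 2 E-type cyclins, which activate Cdk2 at the start of S phase, differed from each other in their ratios. Ccne2 was at 7.23 against 3.31 CPM (-1.13, -1.36 to -0.89) and Ccne1 at 5.01 against 3.82 CPM (-0.39, -0.63 to -0.15), so that their intervals did not overlap.

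The D-type cyclins and CDK inhibitors did not share a direction. Ccnd2, cyclin D2, (chr6:127125162-127152193, - strand) was the one D-type cyclin that was lower in the tumor library by 1.5-fold, at 507 CPM (501 to 512) against 257 CPM (254 to 261), a log2 ratio of -0.98. Ccnd3 was at 54.3 against 60.5 CPM (0.16, 0.09 to 0.22). Ccnd1 was at 1.42 CPM from 92 UMIs against 1.58 CPM from 109 UMIs (0.16, -0.25 to 0.58). Of the 109 UMIs, 24 lay in the 36 barcodes with few AM markers, and without such barcodes the log2 ratio was -0.17. Cdkn1a, the p53 target p21, was at 736 CPM in the control library and 743 CPM in the tumor library, and its ratio of 0.01 had an interval of -0.01 to 0.03. Cdkn1b, the inhibitor p27 of resting cells, was at 60.6 against 75.6 CPM (0.32, 0.26 to 0.38). Cdkn2c, the inhibitor p18 of Cdk4 and Cdk6, was at 3.98 against 2.06 CPM (-0.95, -1.25 to -0.65). Stmn1 was at 208 CPM (204 to 211) against 107 CPM (104 to 109), a log2 ratio of -0.96. Over all 46 members, 36 were lower by at least 1.5-fold and none was higher, where 12.0% of all genes were lower and 8.02% higher.

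Genes of the S and G2/M programs outside the 46 were also lower. Of 34 other S genes, 24 were lower by 1.5-fold and none higher, with a median of -0.83. The widest ratios were those of Tk1 (-1.42), Pole (-1.40) and Clspn (-1.24). Of 42 other G2/M genes, 36 were lower and none higher, with a median of -0.90, and Kif4 (-1.79), Nuf2 (-1.51) and Ncapg (-1.42) stood first. Of 23 regulators of the cycle, 5 were lower, against 12.0% of all genes, and none higher: E2f7, Mybl2, Cdc25c, Foxm1 and E2f8, at -1.33 to -0.93. The median of that list was -0.16. Of 14 p53 targets with enough UMIs, 1 was lower and 2 were higher, counts that lay near the 12.0% and 8.02% of all genes. Some genes known for control of macrophage self-renewal went the other way. Of 8 such genes, 3 were higher by 1.5-fold and none lower, where 8.02% and 12.0% of all genes were. Maf, a factor known to hold back macrophage division, was at 1.02 against 5.70 CPM (2.48, 2.11 to 2.88) and Klf4 at 389 against 587 CPM (0.59), both past 1.5-fold. Klf2 (0.58), Csf2rb (0.36), Csf1r (0.30), Myc (0.05) and Csf2ra (-0.07) were within it.

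To separate how many barcodes were in cycle from what they held, a barcode was called cycling if it had at least 5 UMIs of the 4 rule genes Mki67, Top2a, Birc5 and Ube2c together. In the control library 328 of 6185 barcodes were cycling, 5.30% (4.76% to 5.89%). In the tumor library 164 of 7666 were, 2.14% (1.83% to 2.49%). The share was 3.16 percentage points higher in the control library (2.52 to 3.83), or 2.48-fold. Depth differed between the libraries, so each barcode was also thinned to 3800 UMIs, leaving out 595 shallower barcodes of the control library and 729 of the tumor library. The shares were then 3.90% and 1.69%, with a difference of 2.21 points (1.62 to 2.83). At every count required from 3 to 20 UMIs, with and without thinning, the control share was the higher one. Among the 8 barcodes per library with at least 1% of their UMIs from markers of other cell types, none was cycling, which with so few barcodes allows a share of up to 37.5%, or 3 counts of 8. The exact interval of that share ends at 36.9% in either library. The 1% limit did not catch 2 cycling barcodes of the tumor library with few AM markers, which are described with the marker levels. Leaving out the barcodes with the highest 6% of doublet scores, which removed 277 kept barcodes of the control library (4.48%) and 415 of the tumor library (5.41%), gave 5.09% and 2.12%.

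**Figure D2:**
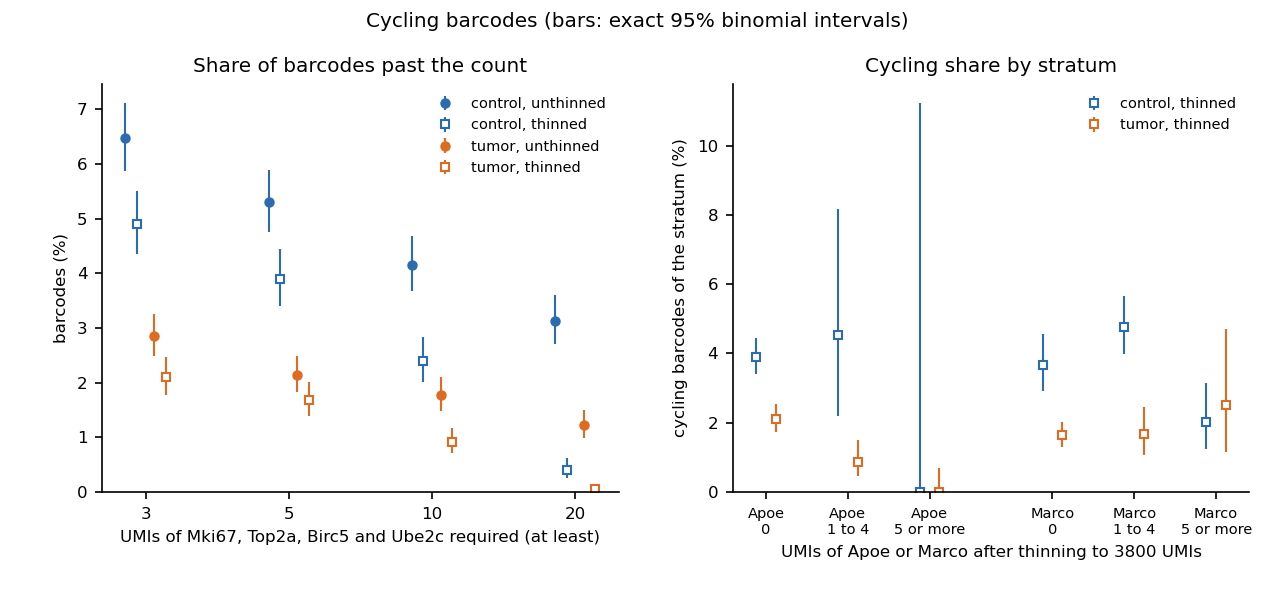
Left, percentage of kept barcodes with at least 3, 5, 10 or 20 UMIs of the 4 rule genes, unthinned (circles) and thinned to 3800 UMIs (squares), by library. Right, percentage of thinned barcodes that were cycling by UMIs of Apoe or Marco. Bars are exact 95% binomial intervals. The control share is above the tumor share at every count on the left and in the Apoe 0 and 1 to 4 strata on the right, where no barcode with 5 or more Apoe UMIs was cycling.

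The barcodes called cycling carried most of the G2/M transcripts. They held 7.58% of all UMIs in the control library and 3.23% in the tumor library, but a median of 83.6% and 80.1% of the UMIs of the 18 G2/M members that were not rule genes. All 18 were past 2-fold over the other barcodes in both libraries, where 9.78% and 10.5% of all genes were and where 0.683% and 0.749% were lower by as much. Cenpf was at 273 CPM in cycling and 0.951 CPM in other barcodes of the control library, with 95.9% of its UMIs in cycling barcodes, and at 263 and 0.586 CPM in the tumor library, with 93.7%. Cyclin A2 (Ccna2) was at 96.4% and 93.0%. Bub1b (27.6% and 15.7%), Aurka (56.5% and 45.3%) and Cenpa (62.1% and 39.9%) were less concentrated.

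All 17 S members were also past 2-fold in cycling barcodes of both libraries, but with a median of 39.7% and 27.1% of their UMIs there. Pclaf (90.5% and 85.2%) and Rrm2 (87.8% and 83.2%) were placed like the mitotic genes. Pcna (25.8% and 12.5%) and E2f1 (15.8% and 7.44%) lay mostly in other barcodes. Of the remaining members, Cdkn2c was 28.6-fold and 35.5-fold higher in cycling barcodes, and Stmn1 27.1-fold and 33.3-fold. Ccnd2 was lower in cycling barcodes, by log2 ratios of -0.42 and -0.61, and Cdkn1b was at -0.00 and 0.19. Cycling barcodes were deeper than the others, with medians of 14947 against 10190 UMIs in the control library and 12290 against 8204.5 in the tumor library.

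Within cycling barcodes the S and G2/M members were at like levels in the libraries, as were most genes. The rule genes chose these barcodes and are left out here. The same cut was used in both libraries, so like levels of other G2/M members may follow in part from that choice. None of the other 18 G2/M members differed by 1.5-fold, where 5.88% of all genes were lower and 7.3% higher by that fold, and the median log2 ratio was -0.00 with a range of -0.22 to 0.24. Their summed level was 2631 CPM in the control library and 2601 CPM in the tumor library. None of the 17 S members differed by 1.5-fold, the median was -0.07, and the sums were 2966 and 2810 CPM. With most genes within 1.5-fold too, these counts do not set the members apart. Pcna was at 703 against 645 CPM (-0.12, -0.21 to -0.04). At the ends of the range were Ccne1 (37.6 against 56.3 CPM, log2 0.58, 0.24 to 0.92) and Gins2 (58.1 against 43.3 CPM, -0.43, -0.78 to -0.09). In the G1 group, Ccnd2 stood apart at 386 against 170 CPM (-1.18, -1.35 to -1.02). It was the 1 member of the 41 tested there, rule genes aside, that was past 1.5-fold. Ccne1 lay just inside at 1.497-fold, and was past it when at least 10 rule UMIs were required (0.63), with the other rule genes (0.63) and at 5% mitochondrial UMIs (0.61). Cdkn1a was at 867 against 1090 CPM (0.33, 0.26 to 0.40), and Cdkn1b was at 60.4 against 86.1 CPM (0.51, 0.24 to 0.78). The intervals of these 2 inhibitors lay above 0 although neither passed 1.5-fold.

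**Figure D3:**
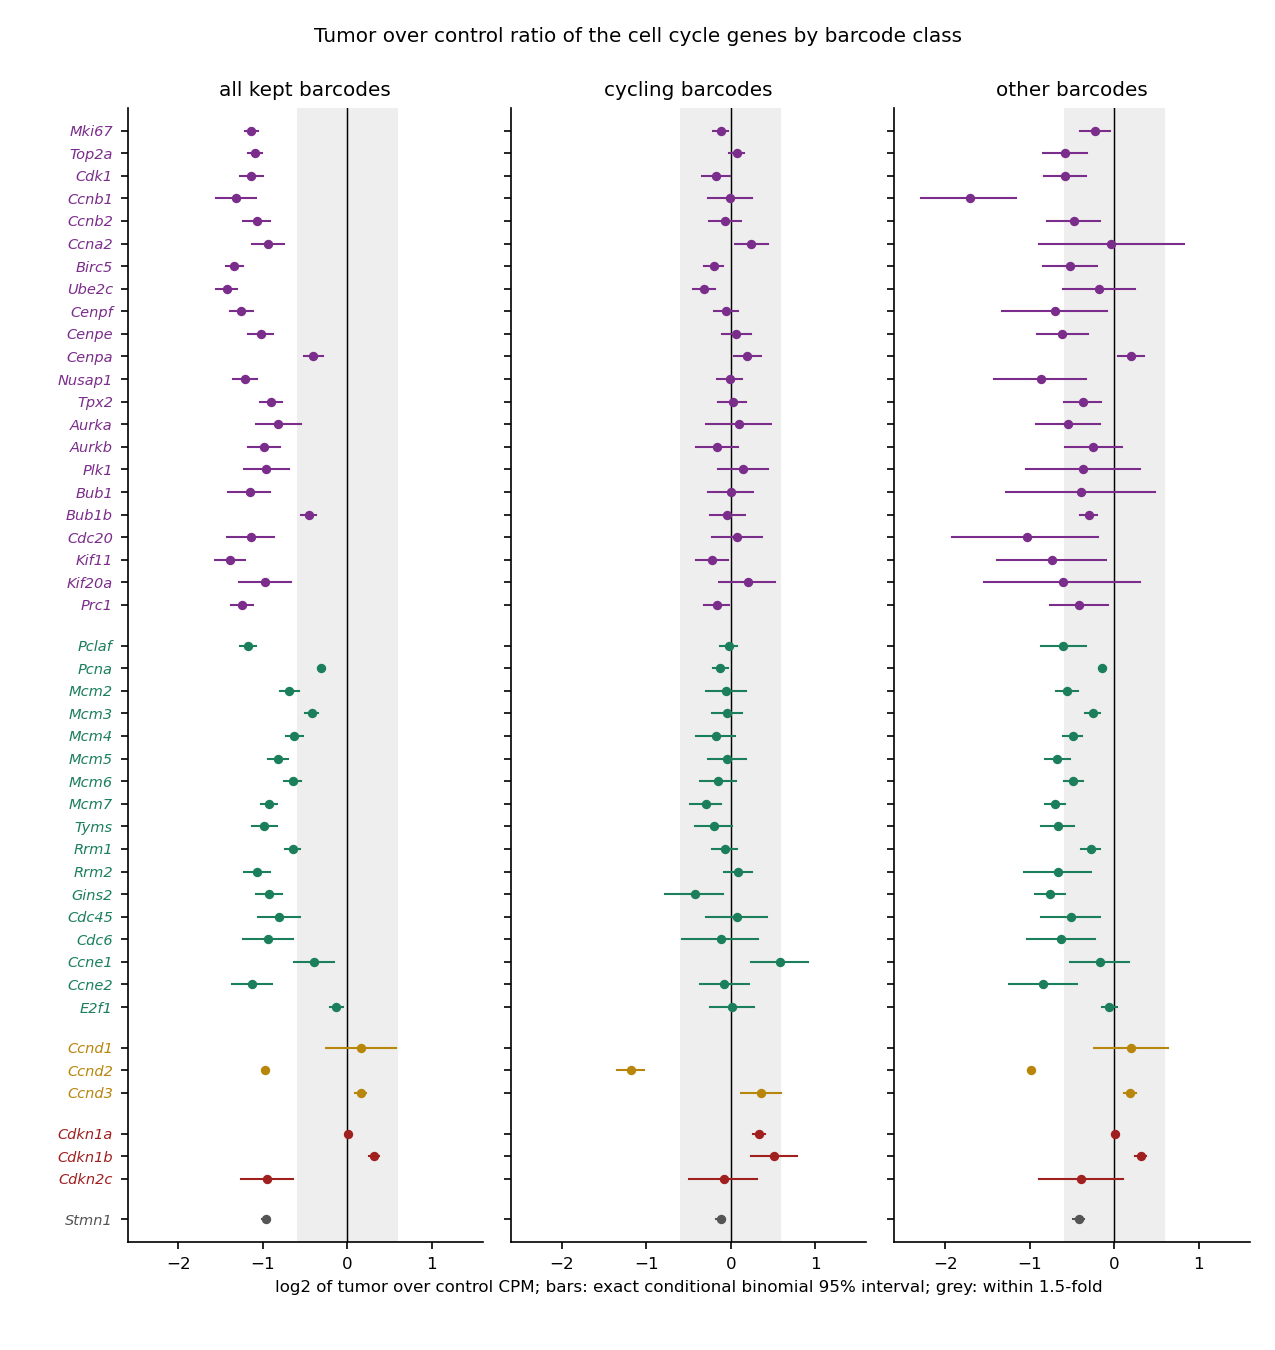
Log2 ratio of tumor over control CPM for each member over all kept barcodes, over cycling barcodes and over the other barcodes, with exact conditional binomial 95% intervals as bars, 1.5-fold either way as a grey band, and colours by role. Ccnd1 has no point among cycling barcodes, where it had under 10 UMIs in the tumor library. Among cycling barcodes Ccnd2 is the 1 member outside the band.

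In the barcodes that were not called cycling, 16 of the 42 members that were not rule genes were lower in the tumor library by 1.5-fold, against 10.4% of all genes. None of the 42 was higher, against 8.04% of all genes, and 26 were within that fold. Of the 18 G2/M members among them 7 were lower, with a median of -0.51. Of the 17 S members 8 were, with a median of -0.56. Ccnb1 had the widest ratio, with 109 UMIs in the control library against 37 in the tumor library (-1.71, -2.29 to -1.16). Mcm5 was at 15.5 against 9.72 CPM (-0.67) and Gins2 at 10.9 against 6.43 CPM (-0.76). Cenpa was the 1 G2/M member with the other sign, at 9.66 against 11.1 CPM (0.20, 0.04 to 0.36). The intervals of Ccnd3 (0.18) and Cdkn1b (0.31) also lay above 0. E2f1 (-0.06) and Ccne1 (-0.17) had intervals that included 0, and Ccnd2 was at 517 against 260 CPM (-0.99). S transcripts were also counted without those of mitosis, which does not by itself place a barcode in S phase, since at least 1 UMI of Pcna was found in 72.1% of all control and 65.9% of all tumor barcodes. Barcodes with at least 5 UMIs of S members and fewer than 5 of G2/M members made up 1454 of 6185 in the control library, 23.5% (22.5% to 24.6%), and 1128 of 7666 in the tumor library, 14.7% (13.9% to 15.5%). After thinning these shares were 6.98% and 3.63%, and their difference was 3.34 points (2.54 to 4.16). Barcodes with at least 5 S UMIs and no G2/M UMI at all were fewer, 8.38% and 6.22%, or 3.09% and 1.93% after thinning. With Pcna left out of the S members, a choice made after the data were seen, barcodes with at least 5 S and fewer than 5 G2/M UMIs made up 10.6% and 5.71%, or 4.42% and 2.21% after thinning.

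The balance of S against G2/M was taken over cycling barcodes as S UMIs in percent of S plus G2/M UMIs, with the rule genes left out. It was 52.99% (52.4% to 53.6%) in the control library and 51.9% (51.0% to 52.8%) in the tumor library. The order of the libraries was not steady. It turned to 45.2% against 48.7% after thinning, to 49.1% against 50.1% when at least 10 rule UMIs were required, and to 47.4% against 47.9% when Cdk1, Nusap1, Prc1 and Cenpf defined the class. Counted by barcode, 175 of 328 control barcodes (53.4%) and 79 of 164 tumor barcodes (48.2%) held more S than G2/M UMIs. The difference was 5.18 points, with an interval of -4.50 to 14.8, and with the class called after thinning the order turned to 39.0% against 43.6%. A larger gap lay at the S end. At least 80% S, a limit chosen after the values were seen, was found in 89 of 328 control barcodes (27.1%) and 27 of 164 tumor barcodes (16.5%), a difference of 10.7 points (2.56 to 18.1). With the cycling class called before thinning, it was 28.6% against 18.0%. With the class called after thinning, it was 8.26% against 10.3% and the interval of the difference included 0. Over all kept barcodes the balance was 69.4% in the control library and 74.7% in the tumor library, and over the barcodes not called cycling 85.1% and 85.3%.

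**Figure D4:**
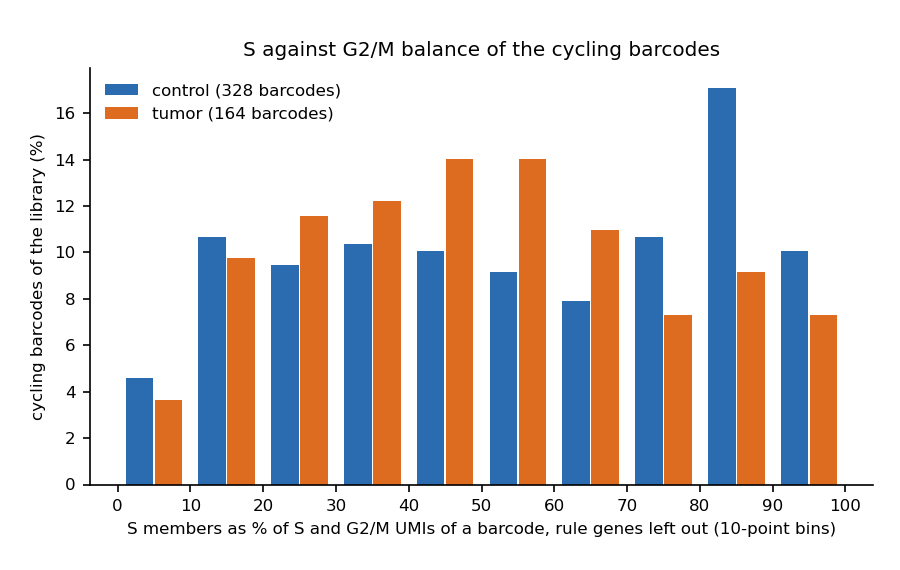
Cycling barcodes of each library, in percent, by the share of S UMIs among the S and G2/M UMIs of the barcode in bins of 10 percentage points, with the rule genes left out. Both libraries spread over the whole range, and the control library has its highest bar above 80% S.

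To place the other members in the cycle, cycling barcodes were split by index genes that were then left out. A barcode was S-side if Pcna and Mcm2 to Mcm7 had more UMIs than Ccnb1, Ccnb2, Cdc20, Plk1, Cenpe, Cenpa and Aurka, and M-side otherwise. S-side barcodes were 210 of 328 in the control library (64.0%) and 95 of 164 in the tumor library (57.9%), a difference of 6.10 points with an interval of -3.30 to 15.6. With the class called after thinning the order turned to 51.8% against 53.8%. S members outside the index were higher on the S side in both libraries, past 1.5-fold in 8 of 8 with enough UMIs in the control library and 7 of 7 in the tumor library. The background was 7.35% of all genes in the control library and 9.58% in the tumor library. E2f1 had log2 ratios of S-side over M-side of 2.10 and 2.49, Tyms 1.71 and 1.51, and Pclaf 0.92 and 1.28. All 15 of these ratios lay above 0.

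The G2/M members outside the index did not follow the split as evenly. The rule genes, whose UMIs chose these barcodes, are again left out. In the control library 10 of the other 11 were higher on the M side by 1.5-fold, against 11.2% of all genes, with a median of -0.71. In the tumor library 2 of 11 were, against 11.9%, with a median of -0.08. Those 2, Cenpf (-1.43) and Kif20a (-1.52), were at -2.42 and -1.47 in the control library. Cdk1 was at -0.80 (-0.98 to -0.62) in the control library and at 0.24 (-0.05 to 0.53) in the tumor library. Aurkb, the kinase of the chromosomal passenger complex, was at -0.47 (-0.74 to -0.20) and at 0.71 (0.26 to 1.18). For both genes the intervals of the libraries did not overlap. These intervals come from pooled UMIs and leave out the spread between barcodes. The share of all genes with intervals apart is not given here. Among the members of other roles, Cdkn1b was higher on the M side in both libraries, at -0.62 and -0.57, and Ccnd2 was at 0.32 and -0.34.

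**Figure D5:**
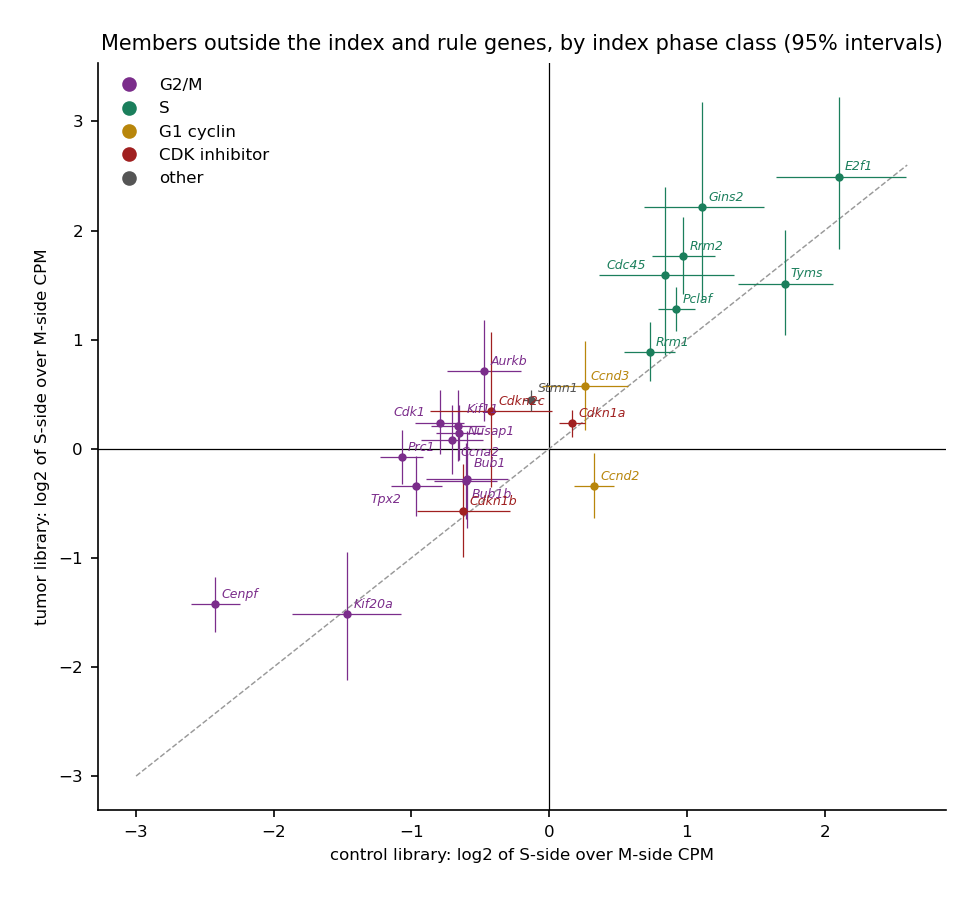
Log2 ratio of S-side over M-side CPM in the control library (horizontal) and the tumor library (vertical) for the 24 members outside the index and the rule genes with at least 10 UMIs on each side in both libraries, with 95% intervals as bars, colours by role and a dashed line of equal ratios. S members lie at the upper right, and 10 of the 11 G2/M members lie above the line. The median ratio over all genes was -0.06 in either library. The share of all genes above the line is not given here, and all members were read from the same split of barcodes.

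Cycling barcodes were looked for across the range of Apoe, a lipid carrier gene, and Marco, a scavenger receptor gene of AMs. Each range was set by UMIs after thinning, and is a range, not a cell type. Barcodes with no Apoe UMI made up 95.5% of the thinned control library and 71.0% of the thinned tumor library. Among them 208 of 5338 were cycling in the control library (3.90%) and 104 of 4927 in the tumor library (2.11%). With 1 to 4 Apoe UMIs, 10 of 221 (4.52%) and 13 of 1479 (0.879%) were. With 5 or more, none of 31 and none of 531 was, although 2 of the 531 (0.377%) were cycling by their UMIs before thinning. With no Marco UMI the shares were 3.68% and 1.63%, and with 1 to 4 they were 4.77% and 1.67%. With 5 or more Marco UMIs they were 19 of 935 (2.03%) and 9 of 358 (2.51%), with intervals that overlapped. That order was not steady. With cycling called before thinning, the same ranges held 4.81% and 3.35%, and with at least 3 rule UMIs after thinning 3.32% and 3.07%.

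The level of Ccnd2 differed along both genes, in ranges examined after the data had been seen. With no Apoe UMI it was at 524 CPM in the control library and 346 CPM in the tumor library (-0.60, -0.64 to -0.55). With 1 to 4 it was at 514 against 159 CPM (-1.69), and with 5 or more at 340 against 75.8 CPM (-2.16, -2.67 to -1.62). By Marco the ratio went the other way. It was -1.26 with no Marco UMI, -0.10 with 1 to 4 and 0.01 (-0.11 to 0.13) with 5 or more, where the levels were 610 and 615 CPM. The ratio of Cdkn1b was 0.45 with no Apoe UMI and 0.66 with 1 to 4, and 0.28, 0.46 and 0.80 (0.45 to 1.16) with no, 1 to 4 and 5 or more Marco UMIs. That of Stmn1 was -0.71 and -1.22 by Apoe, and -0.65, -1.29 and -0.40 by Marco. With 5 or more Apoe UMIs both genes had under 10 UMIs in the control library.

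Markers of AMs were the most abundant of the marker lists in the cycling barcodes. The summed level of the 14 AM markers was 15207 CPM in cycling barcodes of the control library and 13246 CPM in those of the tumor library. The 10 markers of monocytes or tumor macrophages summed to 72.2 and 146 CPM, and Ly6c2, Tgfb3, C1qa and C1qb were at 0 in those of the control library. The 6 neutrophil markers summed to 83.8 and 150 CPM, with 3 of them at 0 in both libraries. The 8 epithelial or carcinoma markers summed to 540 and 190 CPM and were seen in 316 of 328 and 105 of 164 cycling barcodes. Most of that sum was Krt19, at 427 and 148 CPM, while Krt8 and Krt18 had 1 UMI each in the control library. In the other barcodes the epithelial sum was 601 and 232 CPM. The 6 fibroblast markers summed to 0.407 and 45.95 CPM, and of the latter, 98 UMIs came from 2 barcodes under 1000 CPM of the AM markers. Those 2 cycling barcodes of the tumor library held 6 of the 7 cycling Ccnd1 UMIs, all 11 Krt8 UMIs and no UMI of Ptprc, the leukocyte marker CD45. Without the barcodes under 1000 CPM the tumor cycling share was 2.12%, the balance 51.3%, and the medians of the G2/M and S members -1.12 and -0.84, with the same counts of members past 1.5-fold. Within cycling barcodes the median of the members other than rule genes was then -0.03, with Ccnd2 still the 1 member past 1.5-fold. In the tumor library at least 80% S was found in 16.0% of cycling barcodes and the S side in 57.4%, Cdk1 was at 0.22 and Aurkb at 0.72 for S-side over M-side, and the cycling share was 2.12% with no Apoe UMI and 1.64% with no Marco UMI. The ratio of Ccnd2 was -0.60 with no Apoe UMI and 0.01 with 5 or more Marco UMIs. The cycling barcodes had median mitochondrial shares of 2.63% and 2.52%, near those of the other barcodes at 2.70% and 2.47%.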

How the data were processed

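The authors sorted AMs, made 10x Genomics 3′ libraries (v3.1) and deposited 1 table of raw UMI counts per library, with no normalization. The submitters' processing notes name Cell Ranger 4.0.0, bcl2fastq 2.20 and mm10, while the methods of the study name a later Cell Ranger. The 46 members and all gene lists were chosen with earlier results of these data known. Counts were read with Python 3.11.15, numpy 2.4.6, scipy 1.17.1 and pandas 2.3.3. Barcodes with at least 500 genes and at most 10% mitochondrial UMIs were kept. The study's own filtered set of cells was not used here. Levels are CPM of summed UMIs (times 1000000 over the UMIs of the class of barcodes) with exact Poisson intervals, ratios have exact conditional binomial intervals, shares have exact Clopper-Pearson intervals, and intervals of a difference of shares add the squared half-widths of both. Genes needed at least 10 UMIs in each class compared. A list is described by counts past 1.5-fold and its median beside those over all genes. Every member is named by role, and of other lists at most the 6 largest past 1.5-fold. The scripts were tested on simulated data. The Scrublet doublet caller (scanpy 1.11.5) marked 3 and 8 barcodes, too few to have worked, so doublets stayed in, and leaving out the highest 6% of its scores was an alternative. Other alternatives varied the cycling limit and genes, filters, scaling, fold, depth and other cell types, and 3 were added after the data were seen: Apoe and Marco ranges for the G1 genes, leaving out barcodes with few AM markers, and leaving Pcna out of the S members. UMI depth sets the precision, from 64850143 kept UMIs in the control library and 68801889 in the tumor library. Of the listed genes, H2az1 had no match. Promoter windows are RefSeq sequences of GRCm38.p6, matched by symbol. The list of self-renewal genes is given in part, and 1 item is not reported here.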

Additional observations from a re-analysis of the deposited data

Results flagged for a closer look

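Barcodes that failed the filter on genes or mitochondrial UMIs enter no comparison, yet some of them carried the mitotic transcripts. In the control library 19 of the 2300 barcodes left out held at least 5 UMIs of Mki67, Top2a, Birc5 and Ube2c, 0.826% (0.498% to 1.29%). In the tumor library 5 of the 1509 left out did, 0.331% (0.108% to 0.772%). These were noticed because they are a signal in data that the report does not use, and both shares lie below those of the kept barcodes of the same library. The kept barcodes held 64850143 of 67847088 UMIs in the control library and 68801889 of 70738320 in the tumor library. Barcodes left out thus had fewer UMIs with which to reach 5, and the shares cannot be compared at equal depth.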

How the results depend on the processing

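No paired analysis was possible because each group is 1 library. Within cycling barcodes, taken separately, 15 members other than rule genes had ratios above 0 and 26 below. Among the former, Ccna2 (0.24, 0.05 to 0.43) was lower by 1.5-fold over all barcodes. Leaving the cycling class aside, of the members past 1.5-fold over all barcodes, Ccnd2 changed direction. It went to 0.011 within barcodes with 5 or more Marco UMIs, where its interval included 0. The other signs that turned outside that class were those of Cdkn1a and Ccnd1, whose intervals over all barcodes include 0. Those of Ccnd3 within barcodes with Apoe UMIs and of Cenpa (0.20) without cycling barcodes also turned. Cdkn1a was at 0.08 (0.05 to 0.12) with no Apoe UMI. With 5 or more Apoe UMIs, in 31 control barcodes, it was at -0.44 (-0.73 to -0.15). Of the values of single genes, 415 stayed within their counting interval and 84 others did not. The shares, balances, medians and counts that moved further (for counts of genes, past 1.5 times) are given here, with shares and balances as control against tumor. When at least 3 rule UMIs were required, the cycling share was 6.47% against 2.86%, the balance 55.4% against 54.0% S, the share with no Apoe UMI 4.93% against 2.58%, and that with 5 or more Marco UMIs 3.32% against 3.07%. With at least 10, these were 4.16% against 1.77%, 49.1% against 50.1%, 2.38% against 1.20% and 1.07% against 1.12%, with no Marco UMI 2.48% against 0.945%, and 1 member was higher within cycling barcodes. With Cdk1, Nusap1, Prc1 and Cenpf as rule genes they were 3.73% against 1.57%, 47.4% against 47.9%, 1.99% against 1.04% and 0.535% against 1.12%, with no Marco UMI 2.15% against 0.866%, and 1 member was higher. After thinning, the cycling share was 3.90% against 1.69%, the S share (at least 5 S and under 5 G2/M UMIs) 6.98% against 3.63% and the balance 45.2% against 48.7%. The balance was 37.7% against 37.4% with the rule genes kept, and 48.0% against 46.7% without Pclaf. The S share was 42.5% against 35.8% at 3 S and under 3 G2/M UMIs, 6.77% against 3.33% at 10 S UMIs, 10.6% against 5.71% without Pcna, 13.8% in the tumor library without high doublet scores, and 24.96% in the control library at 5% mitochondrial UMIs, where 1 member was higher within cycling barcodes. At 2-fold, 3 S members, 0 G1 cyclins or inhibitors and 32 other cell cycle genes were lower. The share of all genes past 2-fold is not given here, so these counts cannot be read against it. Centred on the median ratio, 1 other cell cycle gene was higher. Without cycling barcodes, the G2/M median was -0.50 with 7 lower, the S median -0.56 with 8 lower, 1 G1 cyclin or inhibitor was lower, and 29 other cell cycle genes were lower and 3 higher. The cause was not tested for any of these, and 1 library per group limits every comparison.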
